A study of Rattus norvegicus with 3 samples.

Results

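The water channel genes Aqp4 and Aqp1 and 6 genes of the dystrophin complex (Dmd, Sntb1, Dag1, Sgca, Sgcb and Sgcd) were followed in rat tibialis anterior muscle. The question was whether the Aqp4 transcript varies together with transcripts of the complex that holds its protein at the muscle membrane. Only RNA was measured, so protein amounts and anchoring at the membrane are not shown. The complex genes are called anchors below as a group, whether or not each protein touches Aqp4. Members were chosen by symbol, with the highest mean probe set taken per symbol. Of these 8 genes, 6 had a probe set that the platform annotation assigns to that gene alone, 1 each; Dag1 and Sgcb are not analysed here. They stand among 14506 genes measured in all, and all 6 were among the 10879 genes whose mean level reached the 25th percentile (5.34 on the log2 scale).

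Male Wistar rats aged 11 weeks had eaten a high fat diet (45% of energy as fat) for 3 weeks. After 2 weeks of that diet, 150 µg of plasmid was electroporated into the muscle, and the muscle was taken 8 days later. Group Plin5 received pcDNA3.1-CMV-Plin5, group Plin2 received pENTR-CMV-Plin2, and the controls received the pcDNA3.1 empty vector, so the electroporation and the diet are common to all groups. Each group is 1 array of RNA pooled from 6 rats. No spread between animals can be measured, no test was possible, and every difference below compares 3 arrays rather than 3 conditions. The Plin2 plasmid also has another backbone, so insert and backbone cannot be told apart on that array. Both inserts stood under a CMV promoter, which is active in many cell types, and the share of fibres that took up plasmid is not given.

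Aquaporins are membrane channels for water. In skeletal muscle Aqp4 lies in the membrane of fast fibres, where its tail is held by a syntrophin, an adaptor that is itself bound to dystrophin. Dystrophin links the actin skeleton of the fibre to dystroglycan, which grips the basement membrane outside, and the sarcoglycans form a subcomplex that steadies this link. Aqp1 in muscle is known mainly from capillary endothelium and red blood cells.

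Aqp4 was lower on the Plin2 array by far more than any of its measured anchors. The anchors Dmd, Sgca and Sgcd were lower by 1.25-fold to 1.64-fold there, against 4.12-fold for Aqp4, and the syntrophin gene Sntb1 was slightly higher. On the Plin5 array all 6 genes lay close to the empty vector, Aqp4 farthest from it at 1.11-fold. In bulk RNA, fewer cells of a type and less RNA per cell cannot be told apart. The symbols were chosen with these values known, so the values are a description.

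Aqp4 (probe set 10803305) stood at 10.37 on the Plin5 array, 8.17 on the Plin2 array and 10.22 on the empty vector array, as log2 levels. The Plin2 array alone was low. The Plin2 minus empty vector difference was −2.04, the third lowest among 10879 genes. The Plin5 minus empty vector difference was 0.15, and 5.04% of genes were at least as high. Between the arrays of both droplet proteins, Plin5 minus Plin2, Aqp4 differed by 2.20 (4.59-fold).

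The sequences before the 2 starts of Aqp4 are shown because this gene had the widest difference among the members. Those of Sgcd and Nos1 are shown beside them: Sgcd is the other member that was lower by at least 1.5-fold on the Plin2 array, and Nos1 is the partner of the complex that came closest to Aqp4. They are RefSeq sequences of build GRCr8, each 250 bases before to 50 bases after a start, on the minus strand. Capitals mark the letters CANNTG, the general E-box pattern, which is not specific to muscle regulatory factors. The pattern reads the same on both strands, though a single match need not.
Aqp4, upstream start, chr18:6798793-6799092: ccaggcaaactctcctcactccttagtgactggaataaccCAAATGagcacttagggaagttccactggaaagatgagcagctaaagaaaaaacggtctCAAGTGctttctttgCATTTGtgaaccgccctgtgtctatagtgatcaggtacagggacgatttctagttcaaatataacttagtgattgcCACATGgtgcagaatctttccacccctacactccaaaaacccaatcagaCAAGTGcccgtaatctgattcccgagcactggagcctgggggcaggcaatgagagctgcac
Aqp4, downstream start, chr18:6797877-6798176: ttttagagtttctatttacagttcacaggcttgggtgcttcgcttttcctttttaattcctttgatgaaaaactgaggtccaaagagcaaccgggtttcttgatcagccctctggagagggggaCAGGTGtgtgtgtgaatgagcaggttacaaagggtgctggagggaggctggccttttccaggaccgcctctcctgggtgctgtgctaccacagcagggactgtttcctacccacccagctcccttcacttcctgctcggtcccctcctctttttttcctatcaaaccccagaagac
Sgcd, chr10:32254891-32255190: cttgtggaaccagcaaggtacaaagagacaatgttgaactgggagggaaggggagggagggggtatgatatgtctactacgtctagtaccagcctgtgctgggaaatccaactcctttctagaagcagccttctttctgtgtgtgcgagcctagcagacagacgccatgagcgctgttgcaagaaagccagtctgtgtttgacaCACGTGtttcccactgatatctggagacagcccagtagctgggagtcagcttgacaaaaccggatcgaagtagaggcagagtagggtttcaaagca
Nos1, chr12:44371788-44372087: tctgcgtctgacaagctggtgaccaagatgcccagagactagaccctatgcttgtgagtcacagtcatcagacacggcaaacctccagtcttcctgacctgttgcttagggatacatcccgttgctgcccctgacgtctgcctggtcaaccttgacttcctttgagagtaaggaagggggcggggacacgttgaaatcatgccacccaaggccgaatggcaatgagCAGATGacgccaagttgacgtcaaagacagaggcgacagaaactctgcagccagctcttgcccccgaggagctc

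The upstream window of Aqp4 held 5 such motifs, and the downstream window of Aqp4, the Sgcd window and the Nos1 window held 1 each. Of 33469 windows in the table, 72.1% held at least 1 and 1.78% held at least 5. A match of letters is a description and shows no binding.

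Aqp1 stood at 10.75 on the Plin5 array, 10.22 on the Plin2 array and 10.64 on the empty vector array (log2 levels). Like Aqp4 it was lowest on the Plin2 array, but the difference there was −0.43 (1.34-fold). On the Plin5 array the difference was 0.10.

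Dmd, which encodes dystrophin, stood at log2 levels of 10.85 (Plin5), 10.49 (Plin2) and 10.81 (empty vector). Its difference was 0.04 for Plin5 and −0.32 (1.25-fold) for Plin2. Of all genes, 13.4% were as low as Dmd or lower in the Plin2 comparison. Which dystrophin transcripts this probe set reads is not given in the sources used here.

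Sntb1 encodes the beta syntrophin measured here, an adaptor of the kind that binds Aqp4. Its log2 levels were 10.04 on the Plin5 array, 10.23 on the Plin2 array and 10.07 on the empty vector array. It was thus highest where Aqp4 was lowest, by a Plin2 minus empty vector difference of 0.16 (1.12-fold), and 24.9% of genes were at least as high. After median-centring of the arrays that difference was 0.08. The Plin5 difference was −0.03 as deposited and 0.01 after median-centring of the arrays, so its sign there depended on the scaling.

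Sgca and Sgcd encode the alpha and delta sarcoglycans. Sgcd stood at log2 levels of 10.53 (Plin5), 9.71 (Plin2) and 10.42 (empty vector), which made it the lowest anchor relative to the empty vector on the Plin2 array, at −0.71 (1.64-fold). For Sgca the log2 levels were 11.58 (Plin5), 11.07 (Plin2) and 11.56 (empty vector). Its Plin2 difference was −0.49 (1.41-fold). The Plin5 differences were 0.11 for Sgcd and 0.02 for Sgca.

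**Figure D1:**
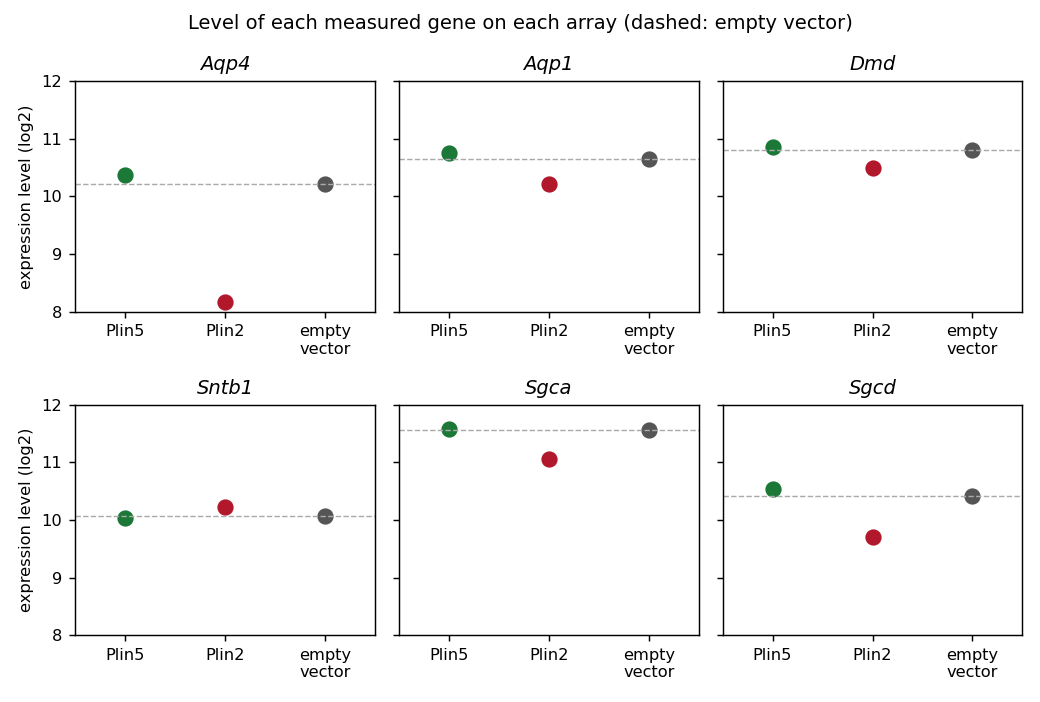
Log2 expression level of Aqp4, Aqp1, Dmd, Sntb1, Sgca and Sgcd (vertical axis) on the Plin5, Plin2 and empty vector arrays (horizontal axis), 1 point per array of pooled RNA, with the empty vector level dashed; levels of different genes are not comparable. Aqp4 lies at 8.17 on the Plin2 array, and Sntb1 is the only gene of the 6 whose Plin2 point lies above the dashed line.

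Of the 6 measured genes, 2 (Aqp4 and Sgcd) were lower by at least 1.5-fold on the Plin2 array than on the empty vector array and 0 were higher; over all genes the shares were 5.8% lower and 8.84% higher. At 1.2-fold, 5 of the 6 were lower, where 15.5% of all genes were, and 0 were higher, where 19.4% were. At 2-fold Aqp4 was the only member left, where 1.31% of all genes were lower. Against the empty vector, 0 of 6 on the Plin5 array passed 1.5-fold either way, where 1.64% of all genes did. The median difference of the 6 was 0.07 for Plin5 and −0.46 for Plin2, and that of all genes was 0.00 in both. Both comparisons share the empty vector array, and the members were chosen on these arrays, so nothing is read from these shares.

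In the comparison of Plin5 with Plin2, Aqp4 and Sgcd (0.82) were higher by at least 1.5-fold, where 7.19% of all genes were, and 0 of 6 were lower, where 11.3% were. At 1.2-fold 5 of 6 were higher (16.6% of all genes), and at 2-fold Aqp4 alone was (1.98%). Aqp1 stood at 0.53, Sgca at 0.52 and Dmd at 0.36, and Sntb1 at −0.20. Median-centring of the arrays shifted this comparison by 0.12. With it Aqp1 (0.66) and Sgca (0.64) also passed 1.5-fold, which made 4 of 6. Most of each gap came from the Plin2 array.

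The remaining genes of the complex differed in both directions on the Plin2 array. Of 12 other dystrophin complex symbols, 8 had a probe set and 5 were bright enough to compare. Their median Plin2 minus empty vector difference was 0.00. By 1.5-fold, 1 was lower, where 5.8% of all genes were, and 0 were higher, where 8.84% were. The lower one was Nos1, the neuronal nitric oxide synthase, an enzyme that is held at the membrane by syntrophin and dystrophin. Nos1 stood at log2 levels of 8.60 on the Plin5 array, 6.76 on the Plin2 array and 8.36 on the empty vector array, so that only the Plin2 array was low. Its differences were 0.24 for Plin5 and −1.60 (3.03-fold) for Plin2.

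The other 4 were closer to the empty vector or went the other way. Dtnb, which encodes beta dystrobrevin, a cytoplasmic relative of dystrophin, was higher on the Plin2 array (log2 levels of 7.11 for Plin5, 7.71 for Plin2 and 7.15 for empty vector, a Plin2 difference of 0.56). Sspn, for the small membrane protein sarcospan, was lower by 1.26-fold (−0.33). Utrn, for the dystrophin relative utrophin, differed by 0.04, and Sgce, for epsilon sarcoglycan, had exactly equal values on all arrays, as did 24.6% of all genes compared. The gamma syntrophins Sntg1 and Sntg2 and zeta sarcoglycan (Sgcz) lay under the brightness limit on all arrays.

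Among the other aquaporins, Aqp7 was the single gene that resembled Aqp4. Aqp7 carries glycerol as well as water and is known best from fat tissue. It stood at log2 levels of 8.96 on the Plin5 array, 7.15 on the Plin2 array and 8.80 on the empty vector array. Its Plin2 difference of −1.65 was a 3.13-fold lower level, and its Plin5 difference was 0.16. Aqp2, Aqp3, Aqp5, Aqp9 and Aqp11 lay between −0.06 and 0.11 on the Plin2 array, and Aqp6, Aqp8 and Aqp12a were under the brightness limit. Over the 6 other aquaporins compared, the median was 0.00, as for all genes.

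**Figure D2:**
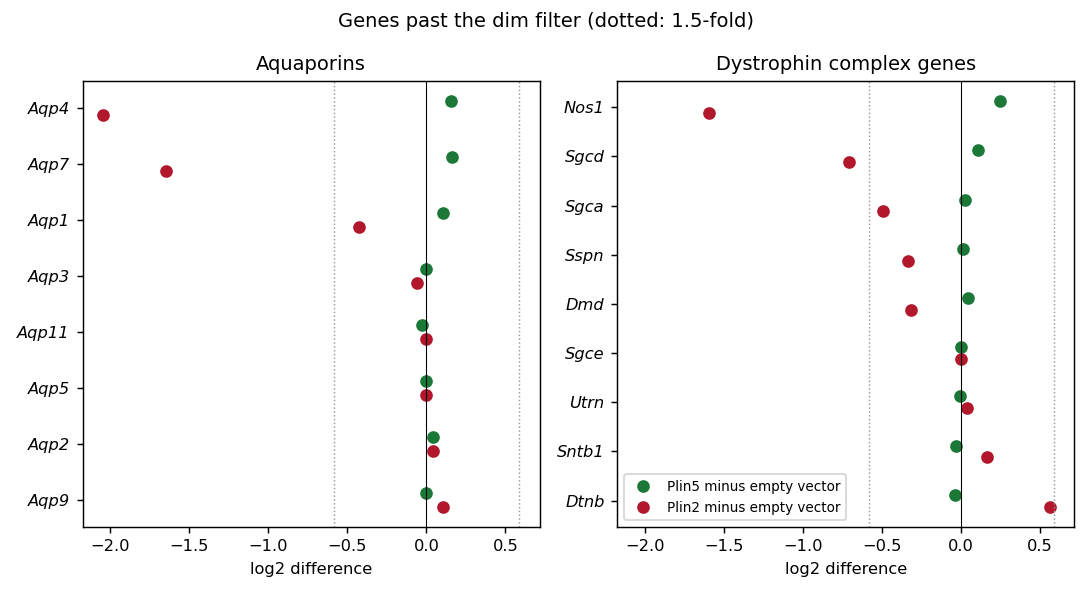
Log2 difference from the empty vector (horizontal axis) of aquaporin genes (left) and dystrophin complex genes (right), with Plin5 in green and Plin2 in red, 1 array per group, and dotted lines at 1.5-fold. Aqp4 (−2.04), Aqp7 (−1.65), Nos1 (−1.60) and Sgcd (−0.71) are the 4 genes left of the lower dotted line, and Dtnb (0.56) is the gene farthest to the right.

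Likeness to Aqp4 was measured as the Euclidean distance between the pairs of differences (Plin5 and Plin2, each minus empty vector), over 3 arrays and 10878 other genes. Sgcd lay at 1.33, and 3.76% of genes were as near or nearer. Sgca lay at 1.56 (7.71% of genes), Dmd at 1.73 (13.2%), Aqp1 at 1.62 (9.32%) and Sntb1 at 2.22 (74.9%). For these genes the distance mostly restates the Plin2 minus empty vector difference given above. By that difference 3.81% of genes were as low as Sgcd or lower, and 75.1% as low as Sntb1 or lower. The distance is thus no separate evidence of likeness. Aqp7 (0.40) and Nos1 (0.45) were the 14th and 17th nearest of all genes.

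Uncharacterised loci aside, none of the 8 nearest genes belongs to the complex or its lists. Pfkfb1, an enzyme that sets the level of an activator of glycolysis, lay at a distance of 0.06, and Scn4b, an accessory subunit of sodium channels, at 0.22. Next came the sialyltransferase St8sia5 and the secreted protein gene Lgi2 (both 0.24), Perm1, a regulator of muscle mitochondria, and Mlxipl, a glucose-responsive transcription factor (both 0.27), and the glutamine transporter Slc38a3 and Asb10 (both 0.30). All 8 lay between −2.01 and −1.75 on the Plin2 array and between 0.13 and 0.41 on the Plin5 array. In the Plin2 comparison they ranked between the 4th and the 12th lowest of all genes, so their nearness mostly restates that rank. For Aqp1 the nearest genes (Socs6, Fbxo6, Mrpl51 and Grsf1) lay within 0.01, in a region where genes are dense.

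**Figure D3:**
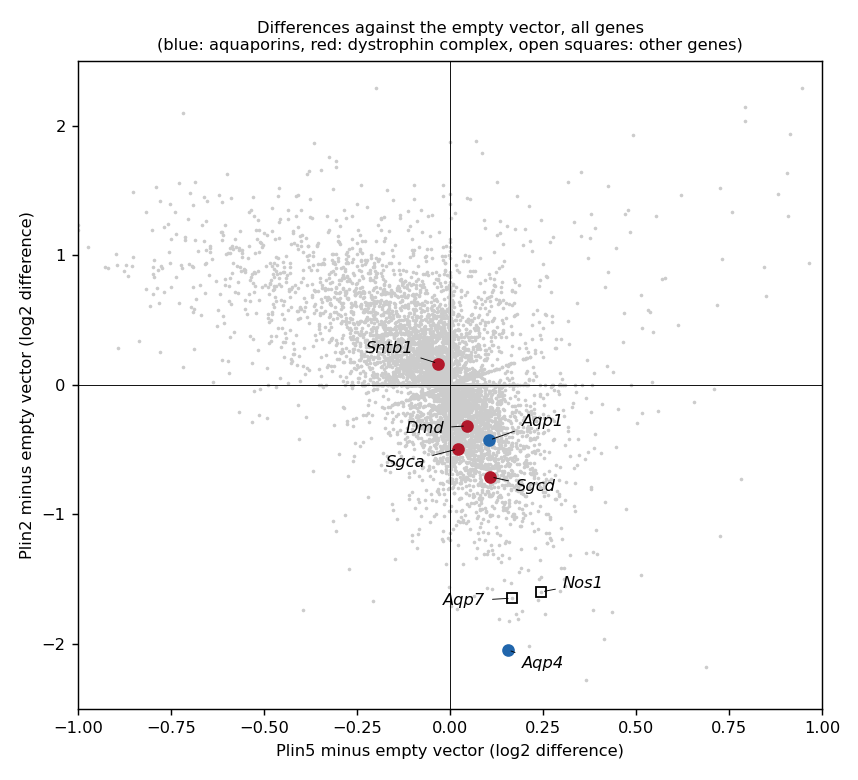
Each of 10879 genes by its Plin5 (horizontal axis) and Plin2 (vertical axis) log2 difference from the shared empty vector array; blue points are Aqp4 and Aqp1, red points the measured dystrophin complex members, open squares Nos1 and Aqp7, and 44 genes lie outside the axes. Aqp4 lies near the lower edge with Nos1 and Aqp7 above it, while Dmd (−0.32), Sgca (−0.49) and Sgcd (−0.71) lie between Aqp4 and 0 on the vertical axis and Sntb1 (0.16) above 0.

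For genes that serve dystroglycan or surround the complex, the counts on the Plin2 array are read beside the 5.8% of all genes that were lower and the 8.84% that were higher by 1.5-fold. Of 12 measured enzymes that build the sugar chains of dystroglycan, 0 passed 1.5-fold, the median was 0.00, and the range ran from −0.25 (Rxylt1) to 0.21 (Gmppb). Of 12 basement membrane symbols, 6 had a probe set, and the laminin chain Lama2 was among those without. Of these 6 genes, 0 passed, with Lama5, another laminin chain, highest at 0.49. Of 13 further membrane and costamere genes, 1 was lower by 1.5-fold, the membrane anchor Ank3 (−0.84), and 3 were lower by 1.2-fold, beside 15.5% of all genes; the median was −0.16. The membrane repair gene Trim72 stood at −0.56 and talin (Tln1) at 0.34.

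Other proteins known to dock on syntrophins varied more widely. Of 9 compared, 3 were lower by at least 1.5-fold on the Plin2 array, where 5.8% of all genes were, and 1 was higher, where 8.84% were. The lower ones were the kinase Mapk12 (−1.05), the muscle sodium channel Scn4a and the potassium channel Kcnj2 (−0.89). Scn4a stood at log2 levels of 11.23 (Plin5), 10.12 (Plin2) and 11.12 (empty vector). The cholesterol exporter Abca1 was higher (0.92), and on the Plin5 array it was lower (−0.78). The calcium pump Atp2b4 stood at 0.34 on the Plin2 array and Kcnj10, a potassium channel that accompanies Aqp4 in glia, at 0.00. The median of the 9 was −0.35, beside 0.00 for all genes.

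Markers of fibres and of other cells also differed between these arrays, and their part in the Aqp4 values was not tested. The tissue label was met by the muscle genes Ckm, Acta1, Mb, Ttn and Ryr1, 5 of 8 listed, which lay between −0.41 and −0.02 on the Plin2 array. The median of 13 fast fibre genes was −0.27 on that array and 3 were lower by 1.5-fold, led by Myh2 (−0.98) and Mybpc2 (−0.75), while Myh4, the myosin of the fastest fibres, stood at −0.27. These genes are among the brightest of the array, where differences can be understated, which was not tested here. The 9 slow fibre genes had a median of −0.78, 6 passed 1.5-fold downward, and Myh7 (−1.75) was lowest. The other 3 were slightly above 0, with Casq2 (0.09) and Atp2a2 (0.03) highest. Beside the counts of both fibre lists, 5.8% of all genes were lower by 1.5-fold on the Plin2 array.

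Genes of regenerating fibres and satellite cells were higher on the Plin2 array (median 0.90, 6 of 8 by 1.5-fold, Mymk at 1.41). Their summed level, in linear array units, was 6833 on the Plin5 array, 17483 on the Plin2 array and 9174 on the empty vector array. For 12 macrophage genes the sums were 6981, 20339 and 9592 in the same order of arrays, and 11 of 12 were higher by 1.5-fold on the Plin2 array. All 7 T and natural killer cell genes were above 0 there, 6 of them by 1.5-fold, with sums of 4351 (Plin5), 9285 (Plin2) and 4532 (empty vector). Beside each of these counts, 8.84% of all genes were higher by 1.5-fold on the Plin2 array. All measured genes of these lists were above the brightness limit on the empty vector array.

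For Aqp1 the markers of its known sites stood as follows. Endothelial genes had a median Plin2 difference of 0.00 and a range from −0.36 (Flt1) to 0.26 (Eng). Of these, 0 of 11 passed 1.5-fold either way, where 14.6% of all genes did. The summed endothelial level was 8890 on the Plin5 array, 8808 on the Plin2 array and 8564 on the empty vector array. Red blood cell genes Hbb (−0.52), Alas2 (−1.04) and Slc4a1 (−0.30) were all lower on the Plin2 array, and Ahsp lay under the brightness limit. Their part in the Aqp1 difference of −0.43 was not tested.

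Markers of nerve sheath, fibroblasts and tendon completed the lists. Aqp4 is abundant in glia of the brain. In the muscle, Schwann cell and glial genes lay between −0.15 and 0.00 on the Plin2 array (5 genes), and Gfap was under the brightness limit. Fibroblast genes had a median of 0.14 and tendon genes of −0.32 on that array. On the Plin5 array, tendon genes had a median of −1.10 and macrophage genes of −0.42, while the members lay between −0.03 and 0.15.

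**Figure D4:**
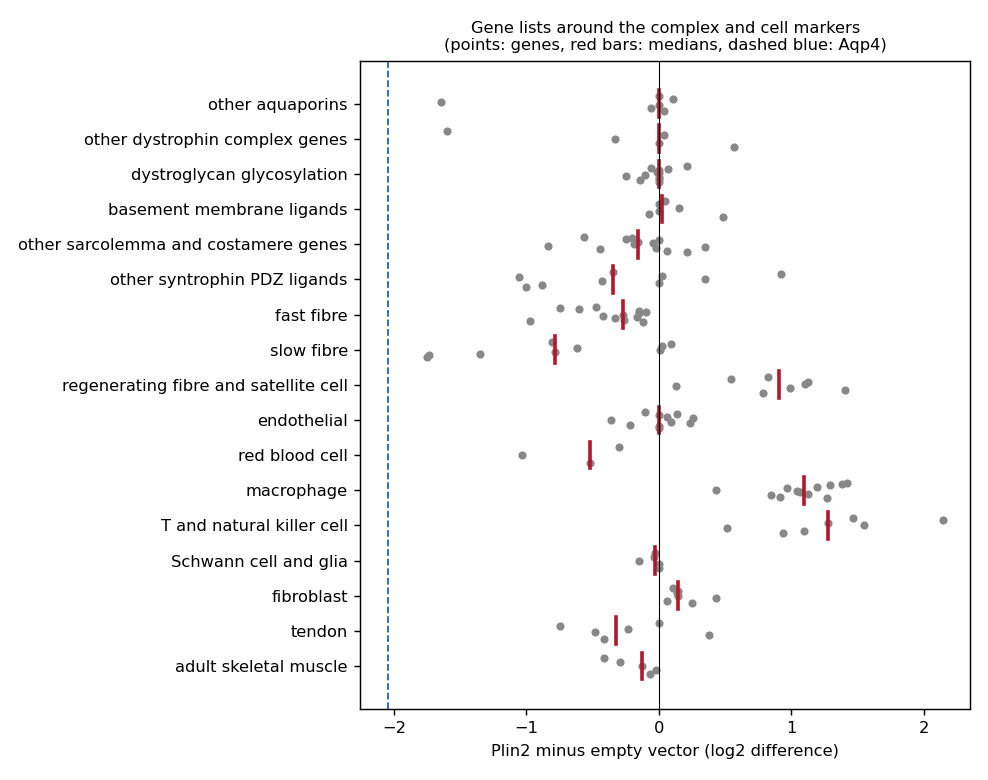
Plin2 minus empty vector log2 difference (horizontal axis) of each compared gene in 17 gene lists (rows), 1 array per group, with list medians as red bars and Aqp4 as the dashed blue line at −2.04. No listed gene lies left of Aqp4; the slow fibre list has a median of −0.78 and the macrophage list one of 1.09.

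The introduced genes were each highest on their own array. Plin5 stood at log2 levels of 8.30 (Plin5), 6.79 (Plin2) and 7.52 (empty vector), and Plin2 at 10.08 (Plin5), 10.71 (Plin2) and 9.99 (empty vector). The Plin5 array differed from the empty vector less than the Plin2 array did: 178 of 10879 genes (1.64%) passed 1.5-fold either way on the Plin5 array and 1593 (14.6%) on the Plin2 array.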

How the data were processed

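The authors deposited 1 table of log2 expression values made with RMA, per the submitters' processing notes, which give no version. RMA is a background correction, a quantile normalization over arrays and a median polish of the probes in a set; the log base is not stated, and log2 was taken because RMA returns it. RNA of 6 rats per group was pooled and 100 ng labelled, per the labels' protocols. No chip description or genome build is given in the sources used here.

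Probe sets with 1 gene symbol in the platform annotation (15310 of 29214) were used. Another 323 had several symbols and 13581 had none there, and neither kind was used. Entrez numbers of 15279 matched RefSeq (GRCr8), and 0 symbols needed an update. These made 14506 genes, each read by its brightest probe set on average, and genes under the 25th percentile (5.34) did not enter counts. Of 179 list symbols in 17 lists, 145 had a probe set, 1 of them through a synonym. Members, lists and motif were chosen with earlier results of these data known.

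With 1 array per group, differences of log2 values were taken with no test, and genes were counted past 1.5-fold. The number of arrays limits the precision. Named genes were the members, the other aquaporins and complex genes, up to 2 extremes each way on the Plin2 array per list, and the genes nearest to Aqp4 (8) and Aqp1 (4), without uncharacterised loci, receptor arrays and small RNAs. Kcnj2, Kcnj10, Myh4 and Mb fall outside that rule and were chosen after their values were seen. Gfap and Ahsp also fall outside it and are named only as genes under the brightness limit. Lama2 is named only as a symbol without a probe set. Counting was run on shuffled differences of these arrays with known shifts added, which checks the code and lends no support to the counts. Alternatives covered the probe set rule, scaling, the fold and the dim filter. Computation used Python 3.11.15 with numpy 2.4.6, pandas 2.3.3 and statsmodels 0.14.6, and plots used matplotlib 3.10.9.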

Additional observations from a re-analysis of the deposited data

How the results depend on the processing

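No paired analysis was possible because each group is 1 array. The 110 values of single genes and of distances from Aqp4 were taken over 5 alternatives of probe set choice and scaling. Single-gene values that passed 1.5-fold kept their direction, and 104 values moved by less than 0.10. The other 6 were the member values of Plin5 minus Plin2 after median-centring, which moved by 0.12 by construction. The median of the measured members there was 0.65 and 4 members passed 1.5-fold. Much of the stability was also fixed in advance. Each measured member has 1 probe set, so the probe set alternatives could not move any value. Centring cannot move a distance, and it shifts the comparisons with the empty vector by only 0.04 (Plin5) and −0.08 (Plin2). Quantile normalization and a correction of the differences for expression level could move the values gene by gene, but little movement was left to them. RMA already includes a quantile normalization, and the median difference of all genes was 0.00 in each comparison. For Aqp4 these alternatives gave −2.07 and −2.04 (Plin2 minus empty vector), so the stability under them adds little. A 1.2-fold limit gave 786, 3788 and 4200 of all genes (Plin5 minus empty vector, Plin2 minus empty vector, Plin5 minus Plin2), and a 2-fold limit gave 43, 414 and 777. Of the members, 5 passed 1.2-fold and 1 passed 2-fold in each of the comparisons with the Plin2 array. As deposited, 962 genes were higher and 631 lower on the Plin2 array than on the empty vector array, and 775 and 819 after centring; for Plin5 minus Plin2 the counts were 782 higher and 1225 lower, and 1109 and 979 after centring. Centring shifts Plin2 minus empty vector by −0.08, so list medians closer to 0 than that have no settled sign. RMA gave 29.99% of the genes compared exactly equal values on the Plin2 and empty vector arrays, and small changes of such genes may be hidden.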
